A study of Mus musculus with 8 samples.

Results

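Solute carriers are the large group of membrane proteins that move amino acids, sugars, nucleotide sugars, ions, metals and vitamins across cell and organelle membranes. They are described here in cortical astrocytes cultured from newborn mice, with connexin43 missing (Cx43 KO) or present (WT). The members are the genes whose symbol starts with Slc and a family number, other than the mitochondrial Slc25a carriers, on array features that name 1 gene. The array held 95 such genes on 115 features. A member was tested where it had a ratio on at least 3 Cx43 KO and 3 WT arrays, which left 41 of the 3505 genes and unnamed features tested in all. The rule uses symbols and numbers of ratios and not the difference between the genotypes, but it was set with earlier results of these data known. The symbols take in carriers of the plasma membrane and vesicles, and also of the Golgi, lysosomes and mitochondria, the partner subunits Slc3a1 and Slc3a2, the scaffold proteins Slc9a3r1 and Slc9a3r2, and Slc6a19os, which RefSeq lists as a long non-coding RNA.

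The study hybridised 8 arrays, 4 of Cx43 KO and 4 of WT astrocyte RNA, each against 1 pooled RNA of adult mouse organs (brain, lung, heart, aorta, stomach, liver, spleen, kidney, and ovary or testis). The labels number the arrays 1 to 4 within a genotype and give each pair of equal number the same lot batch. They describe the Cx43 KO donors only as neonatal mice null for Cx43, without the allele, and name the strain, C57BL/6j, on a single WT array. The title of Cx43 KO 3 reads only Cx43, and whether the arrays came from separate cultures or animals is not stated, so p-values measure the spread between these arrays, which may be technical.

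Connexin43 forms most of the gap junctions between astrocytes, through which ions, glucose and small metabolites pass from cell to cell. Solute carriers are another route by which an astrocyte takes up and releases these compounds. Astrocytes are known for clearing glutamate, glycine and potassium from the extracellular space and for handling glucose, creatine and urea. Some solute carriers work as pairs of a transport subunit and a partner subunit. Many are driven by the sodium or proton gradients that ATP-driven pumps build.

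Each value below is the log2 ratio of astrocyte RNA over the tissue pool after the array's median was set to 0. A value of 1 is then 2 times the pool, relative to that median, and base 2 is assumed. The direction, astrocytes over pool, is likely rather than stated. It rests on the astrocyte markers Aldoc, Fabp7 and Ttyh1, with a median level of 1.06, and on the lung, stomach and kidney genes Sftpc, Sftpb, Gkn2 and Kap, with a median of -3.40. A ratio compares a gene only with itself in the pool and gives no order of abundance between genes. In these bulk cultures, fewer cells of a type and less RNA per cell cannot be told apart.

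Cx43 KO 4 stood apart from the other arrays in markers of several cell types. The 3 astrocyte markers with 8 values, of 7 on the array, had a mean of 0.46 there, against 1.75 to 2.02 on Cx43 KO 1 to 3 and 1.86 to 2.20 in WT. Of the other astrocyte markers, Slc1a2 was listed at 0 on all arrays. The 6 microglia and macrophage markers with 8 values, of 12 on the array, had means of 0.06, 0.27, 0.99 and 2.10 on Cx43 KO 1 to 4, against 0.50 to 1.22 in WT. Ctss, Ptprc and Fcer1g of that list were listed at 0 on all arrays. The 4 fibroblast, meningeal and mural markers with 8 values, of 8 on the array, had means of -0.71, -0.31, 1.10 and 2.89 on Cx43 KO 1 to 4, against 0.79 to 1.86 in WT. These are means, and single markers of a list did not all follow them. Of the 5 neuronal markers on the array, Map2 was low on Cx43 KO 4, at -2.54, and Nefm, at -2.01, lay within its WT range.

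With limma and Benjamini-Hochberg adjustment over all 3505, 0 of the 41 solute carriers passed an adjusted p of 0.05, and the background was also 0%. At an unadjusted p of 0.05, 4 solute carriers lay below the threshold (9.76%), against 263 (7.5%) of everything tested. The 4 were the amino acid transporter Slc7a2, higher in Cx43 KO, and the sugar transporter Slc2a12, the Slc10a7 carrier and the sulphate transporter Slc13a4, lower in Cx43 KO. That is 1 higher (2.44%, background 3.85%) and 3 lower (7.32%, background 3.65%). In the fit that blocks on lot batch, 2 of the 41 were below it, Slc2a12 and Slc7a2, against 196 of the 3505 (5.59%). The median difference over the 41 was 0.016, against 0.017 over all tested, and the median size of a difference was 0.21 against 0.19. By sign, 23 were higher and 18 lower, and this split turned to 18 higher and 23 lower with quantile or scale normalization. The Slc25a carriers, with 8 of 17 tested, had a median difference of 0.0056 and 0 below an unadjusted p of 0.05.

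**Figure D1:**
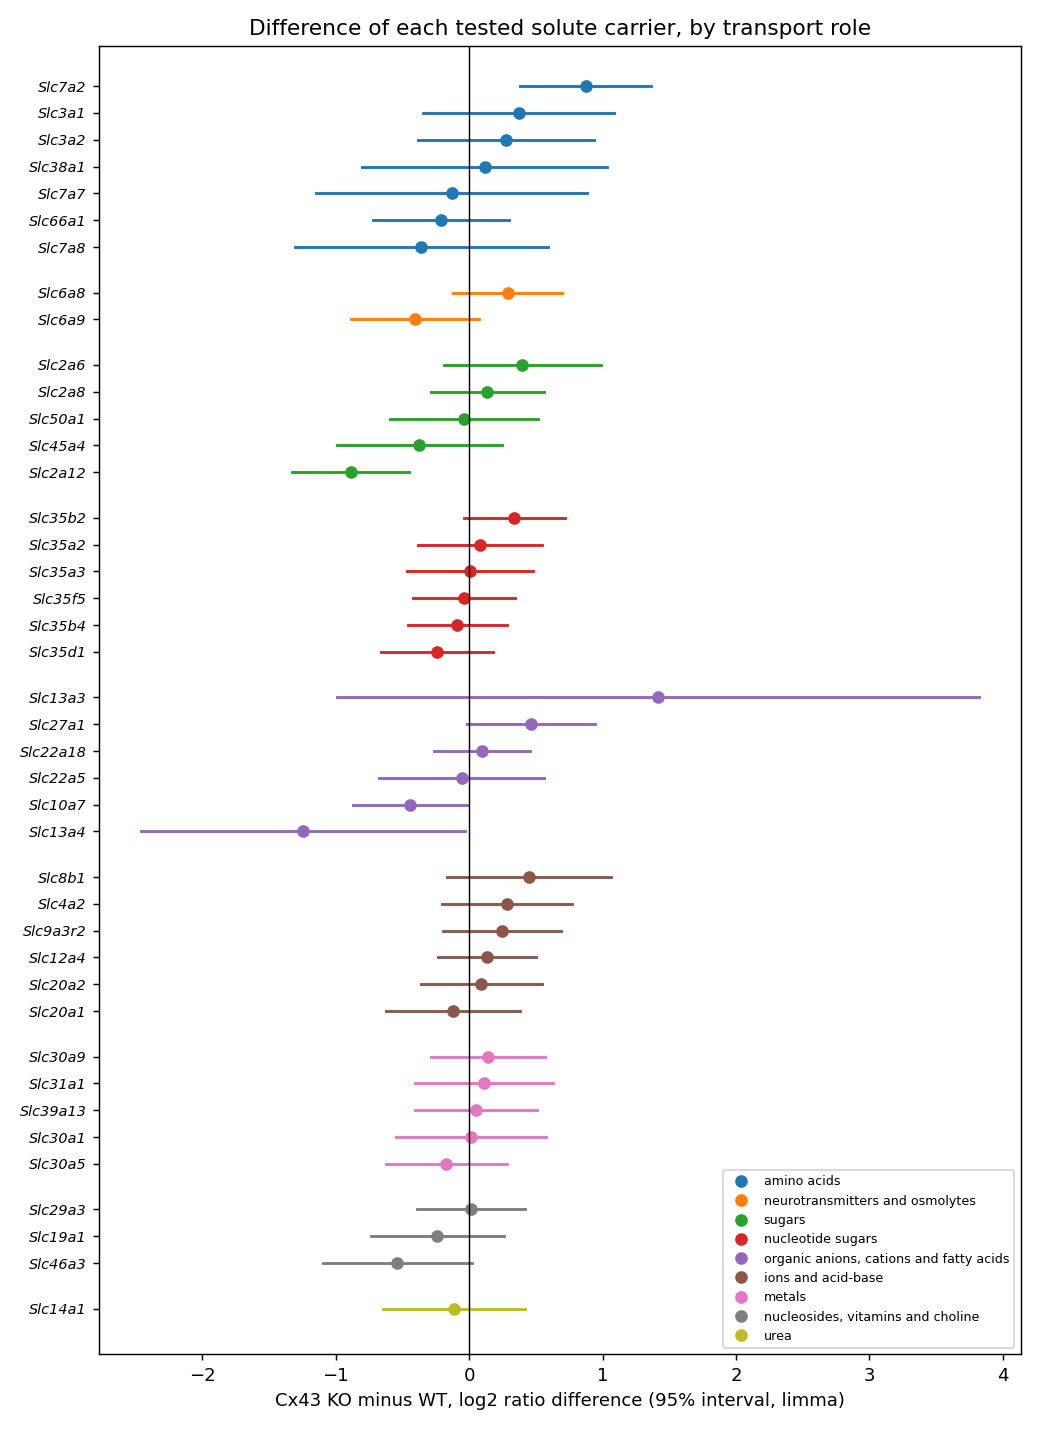
Cx43 KO minus WT log2 difference (horizontal axis) of each of the 41 tested solute carriers, with its 95% interval from limma, coloured by transport role. The intervals of Slc7a2, Slc2a12, Slc10a7 and Slc13a4 leave out 0, and Slc13a3 has the widest interval, from -0.99 to 3.82.

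The amino acid transporters included the member with the smallest p among those higher in Cx43 KO. Slc7a2 encodes a transporter of arginine, lysine and ornithine, and arginine is the substrate of nitric oxide synthase and arginase. It lay at 1.68, 1.69, 1.98 and 1.64 on Cx43 KO 1 to 4, against 0.41, 1.21, 0.64 and 1.24 on WT 1 to 4. Each Cx43 KO value was above each WT value. The difference was 0.87 (SE 0.22, limma adjusted p = 0.471), or 1.83-fold with a 95% interval of 1.30 to 2.57. Within lot batches 1 to 4 it was 1.27, 0.48, 1.35 and 0.40, and over the 20 alternatives it ran from 0.67 to 1.03.

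These Slc7a2 values average 2 features, of which only 1 had a ratio on all arrays. That feature lay at 1.78, 1.69, 1.43 and 1.10 on Cx43 KO 1 to 4, against 0.56, 1.21, 0.64 and 0.65 on WT 1 to 4. The groups overlap there, since WT 2 lies above Cx43 KO 4. The difference was 0.73 (SE 0.22, limma adjusted p = 0.589). The other feature had ratios of 1.58, 2.53 and 2.18 on Cx43 KO 1, 3 and 4, against 0.26 and 1.83 on WT 1 and 4. The difference within lot batch 3 thus sets the mean of 2 features on Cx43 KO 3 against 1 feature on WT 3. Both features were higher in Cx43 KO on average, and the separation of the groups appeared only in their mean.

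**Figure D2:**
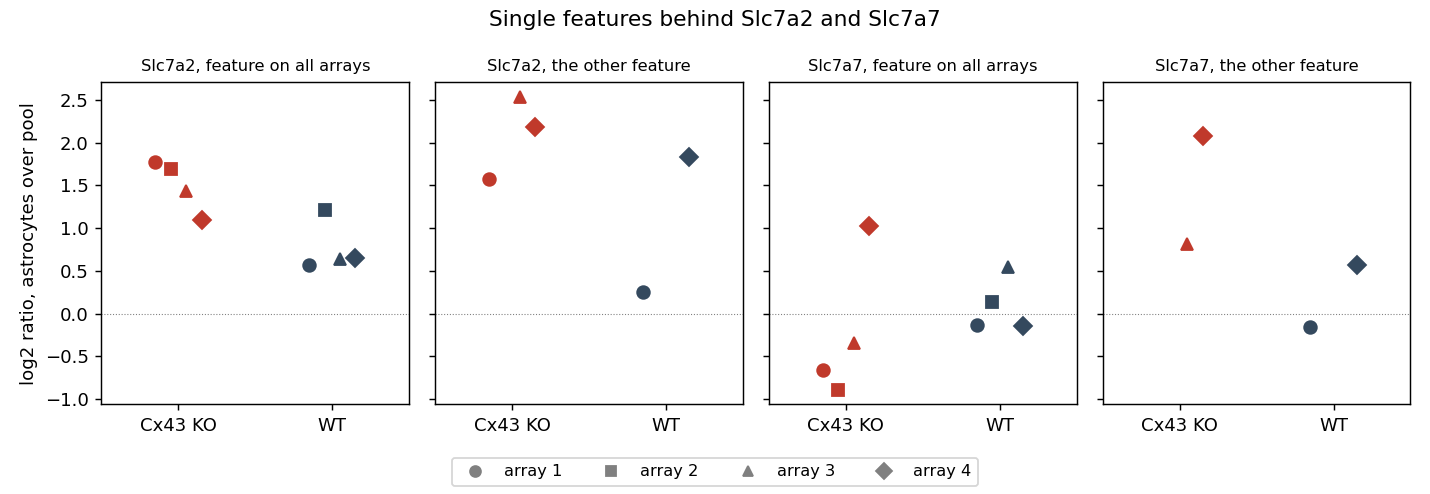
Log2 ratio over the pool (vertical axis) on each Cx43 KO and WT array for the single features of Slc7a2 and Slc7a7, with the array number shown by the symbol's shape. The Slc7a2 feature measured on all arrays runs from 1.10 to 1.78 in Cx43 KO and from 0.56 to 1.21 in WT, and the Slc7a7 feature measured on all arrays is highest on Cx43 KO 4 at 1.02.

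Slc3a2 and Slc3a1 are not carriers themselves but the partner subunits that bring Slc7 transporters to the membrane. Slc3a2, the partner of Slc7a7 and Slc7a8, lay at 1.36, 1.53 and 2.00 on Cx43 KO 1, 3 and 4, against 1.05, 1.56, 0.85 and 1.95 on WT 1 to 4, a difference of 0.28 (SE 0.29). The ranges overlapped. Slc3a1, known as a partner in kidney cystine uptake, lay at -0.57, -0.52, -0.52 and -1.59 on Cx43 KO 1 to 4, against -1.30, -0.78, -1.89 and -0.72 on WT 1 to 4. Its difference was 0.37 (SE 0.32), and 0.64 without Cx43 KO 4, the array that lay apart from the other Cx43 KO arrays. Without lot batch 3 it was 0.04.

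Slc7a7 and Slc7a8 are light subunits for cationic and neutral amino acids, and Slc7a7 is also known from macrophages. Slc7a7 lay at -0.66, -0.89, 0.23 and 1.55 on Cx43 KO 1 to 4, against -0.15, 0.14, 0.55 and 0.21 on WT 1 to 4. Cx43 KO 1 and 2 were below all WT arrays and Cx43 KO 4 was above them. The mean of the microglia and macrophage markers did the same and, of the single markers, Cd68 and Itgam did. Tyrobp, Cd53, Rac2 and Lgmn of that mean did not do so in full. Lgmn was lowest in Cx43 KO on Cx43 KO 4, at 0.68, and stood at 1.58 on Cx43 KO 1. On the Slc7a7 feature measured on all arrays, Cx43 KO 3 also lay below all WT arrays, at -0.34 against -0.14 to 0.55. The other feature, at 0.81 there, raised the Slc7a7 mean on Cx43 KO 3. The mean of the microglia and macrophage markers lay within its WT range on Cx43 KO 3, at 0.99 against 0.50 to 1.22. The part of microglia and macrophages in the Slc7a7 values was not tested. Slc7a8 lay at -1.09, -0.85, 0.44 and 0.61 on Cx43 KO 1 to 4, against -0.26, 0.73, 0.57 and -0.49 on WT 1 to 4. Their differences of -0.13 (SE 0.46) and -0.36 (SE 0.43) were smaller than the spread within Cx43 KO, whose SD was 1.11 for Slc7a7 and 0.87 for Slc7a8. The Slc7a7 feature with a ratio on all arrays differed by -0.32. Slc38a1, a sodium-coupled glutamine transporter, differed by 0.12. Slc66a1, a lysosomal exporter of cationic amino acids, lay at -0.18, -0.46, 0.30 and 0.48 on Cx43 KO 1 to 4, against 0.22, 0.30, 0.46 and 0.0019 on WT 1 to 4, a difference of -0.21 (SE 0.23) that ran from -0.36 without Cx43 KO 4 to -0.04 without Cx43 KO 2. Of the 7 amino acid members, 4 were higher and 3 lower, turning to 3 and 4 with quantile or scale normalization.

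Both tested members of the neurotransmitter and osmolyte families lay clear of the pool, Slc6a9 below it and Slc6a8 above it. Slc6a9 encodes GLYT1, the glycine transporter of astrocytes. It lay at -2.03, -1.47 and -1.29 on Cx43 KO 2, 3 and 4, with no ratio on Cx43 KO 1, against -1.20, -1.22, -1.16 and -1.18 on WT 1 to 4. The 3 Cx43 KO values were below all 4 WT values, which were close together, with an SD of 0.03. The difference was -0.40 (SE 0.21, limma adjusted p = 0.696) and ran from -0.56 to -0.07 over the 19 alternatives that gave a value, the smallest where exact 0 was read as a ratio of 0. Slc6a8, the creatine transporter, lay at 1.56, 1.38, 1.50 and 1.45 on Cx43 KO 1 to 4, against 1.11, 1.18, 0.87 and 1.59 on WT 1 to 4. Its difference was 0.29 (SE 0.18), with WT 4 above all Cx43 KO arrays.

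RefSeq gives Slc6a9 more than 1 start, and the window of the most upstream, from 250 bases before to 50 bases after the start, is printed because it held the GC box letters GGGCGG, in capitals. Windows of later starts, at chr4:117849100-117849399 and chr4:117855297-117855596, held 0 matches to these letters. The printed window is chr4:117835008-117835307 of GRCm38.p6 on the plus strand.
Slc6a9: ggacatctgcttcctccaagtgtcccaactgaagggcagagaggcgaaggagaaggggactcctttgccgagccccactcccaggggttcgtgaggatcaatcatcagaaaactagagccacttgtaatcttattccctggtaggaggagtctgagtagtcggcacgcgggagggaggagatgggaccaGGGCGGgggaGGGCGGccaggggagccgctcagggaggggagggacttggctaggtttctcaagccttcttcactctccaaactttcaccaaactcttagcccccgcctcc

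Sugar transporters included the member with the smallest p of all 41. Slc2a12 encodes GLUT12, a facilitative glucose transporter. It lay at -0.57, -0.82, -1.37 and -1.10 on Cx43 KO 1 to 4, against -0.20, -0.11, 0.05 and -0.04 on WT 1 to 4. All Cx43 KO values were below all WT values, and the WT arrays lay near the pool. The difference was -0.89 (SE 0.20, limma adjusted p = 0.449), so that Cx43 KO was 1.85-fold lower. Within lot batches 1 to 4 it was -0.36, -0.71, -1.42 and -1.06, and over the 20 alternatives it ran from -1.06 to -0.71. Slc2a12 has 1 feature, and it ranked at number 6 by p among the 3505. Without Cx43 KO 4 the difference was -0.84.

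The Slc2a12 promoter window is printed because this gene had the smallest p and did not overlap between the genotypes. It is chr10:22644761-22645060 of GRCm38.p6 on the plus strand, with 47% G or C, and held 0 matches on either strand to the letters GGGCGG (GC box), CCAAT or TATAAA.
Slc2a12: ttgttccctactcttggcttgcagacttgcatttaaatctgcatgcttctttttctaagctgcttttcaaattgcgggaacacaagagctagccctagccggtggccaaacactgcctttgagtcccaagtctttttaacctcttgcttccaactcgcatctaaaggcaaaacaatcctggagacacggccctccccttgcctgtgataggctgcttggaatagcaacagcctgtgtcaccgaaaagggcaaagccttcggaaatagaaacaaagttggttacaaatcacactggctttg

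Of the 41 tested members, 34 had RefSeq windows of this length, 47 in all, and Slc7a2 had none in the table used. GGGCGG, on either strand, was in 31 of these 47 windows, against 64.5% of the windows of all tested genes and 35.7% of all windows in the table. CCAAT was in 12 of the 47 windows, against 1154 of 3033 windows of all tested genes and 12289 of 32851 in the table. TATAAA was in 2 of the 47, against 208 of 3033 and 4473 of 32851. These are matches of letters and not binding sites.

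The other sugar carriers overlapped between the genotypes. Slc2a6, a glucose transporter family member known from macrophages, lay at -0.03, 0.25, 0.26 and 0.99 on Cx43 KO 1 to 4, against 0.14, -0.30 and 0.06 on WT 1, 3 and 4, a difference of 0.40 (SE 0.26) and of 0.19 without Cx43 KO 4. Slc45a4 lay at -0.17, 0.14, -0.15 and -0.39 on Cx43 KO 1 to 4, against -0.51, 0.92, 0.33 and 0.18 on WT 1 to 4, a difference of -0.37 (SE 0.28). Its 2 features lay at different levels and gave smaller differences, -0.22 on the one measured on all arrays and -0.16 on the other, and without WT 2 the difference was -0.14. The intracellular transporter Slc2a8 (GLUT8) differed by 0.14 and Slc50a1, a glucose exporter, by -0.04. Thus 2 sugar members were higher and 3 lower, with Slc2a12 alone below an unadjusted p of 0.05.

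The nucleotide sugar transporters of the endoplasmic reticulum and Golgi feed glycosylation and sulphation. The 6 tested members of the Slc35 family, placed here by family number, were 3 higher and 3 lower, with differences from -0.24 to 0.34. They were 2 higher and 4 lower with quantile or scale normalization or without Cx43 KO 4. Slc35b2, which imports the sulphate donor PAPS into the Golgi, lay at 0.71, 0.63, 0.87 and 0.82 on Cx43 KO 1 to 4, against 0.74, 0.23, 0.36 and 0.34 on WT 1 to 4. Only WT 1 lay within the Cx43 KO range. The difference was 0.34 (SE 0.17, limma adjusted p = 0.696). Slc35d1, a transporter used in chondroitin sulphate synthesis, lay at 0.42, 0.36, 0.22 and -0.22 on Cx43 KO 1 to 4, against 0.26, 0.57, 0.37 and 0.55 on WT 1 to 4. Its difference was -0.24 (SE 0.19) as the mean of its features, and -0.10 without Cx43 KO 4. On the single feature with the most ratios it was -0.37, and on the other feature -0.04. The UDP-galactose transporter Slc35a2 differed by 0.08, the UDP-N-acetylglucosamine transporter Slc35a3 by 0.01, Slc35b4 by -0.09 and Slc35f5 by -0.04.

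Carriers of organic anions, cations and fatty acids held the widest differences in both directions, in Slc13a4 and Slc13a3, and each changed with Cx43 KO 4. Of the 6 tested, 3 were higher and 3 lower. Slc13a4 encodes a sodium-coupled sulphate transporter known from the meninges. It lay at -0.52, -0.93, -0.45 and 1.65 on Cx43 KO 1 to 4, against 1.23, 0.85 and 1.46 on WT 1, 3 and 4. Cx43 KO 1 to 3 were below all WT arrays and Cx43 KO 4 was above them. The difference was -1.25 (SE 0.54, limma adjusted p = 0.658), and without Cx43 KO 4 it was -1.82 with a limma adjusted p of 0.0413. In the other 18 alternatives that gave a value it did not pass. The mean of the fibroblast, meningeal and mural markers with 8 values was also highest on Cx43 KO 4 and low on Cx43 KO 1 and 2. Of the markers outside that mean, Lum and Pdgfra were also highest in Cx43 KO on Cx43 KO 4. Rgs5 was not, at -3.80, -4.08 and -3.94 on Cx43 KO 1, 3 and 4. Fmod went the other way, at 3.50, 4.22, 3.91 and 2.95 on Cx43 KO 1 to 4. Its WT values were 2.64, 3.45 and 3.06 on WT 1, 3 and 4. On Cx43 KO 3 single markers differed, with Col3a1 at -0.21, below its WT values, and Fn1 at 3.27, within its WT range. Their part in the Slc13a4 values was not tested.

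Slc13a3, a sodium-coupled carrier of dicarboxylates such as succinate, lay at 0.36, 0.54, 0.54 and 5.34 on Cx43 KO 1 to 4, against 0.39, 0.36 and 0.08 on WT 1, 3 and 4. A single array stood far from the others, on the gene's only feature. Slc13a3 was listed with Slc13a4 among carriers known from meninges and fibroblasts. Unlike Slc13a4, it did not lie below all WT arrays on Cx43 KO 1 to 3. The difference of 1.42 (SE 1.07) was 0.20 without Cx43 KO 4 and 0.10 without lot batch 4.

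Slc10a7, a carrier of the bile acid transporter family that acts in glycosaminoglycan synthesis and calcium handling, lay at -0.84, -0.99, -1.22 and -0.73 on Cx43 KO 1 to 4, against -0.12, -0.74, -0.59 and -0.55 on WT 1 to 4. The groups overlapped only by Cx43 KO 4 and WT 2. The difference was -0.44 (SE 0.19, limma adjusted p = 0.655), negative in all 4 lot batches, and it ran from -0.53 to -0.32 over the 20 alternatives. Slc27a1, a fatty acid transport protein known from astrocytes, lay at 0.85, 0.85, 0.40 and 0.76 on Cx43 KO 1 to 4, against -0.09, 0.48 and 0.37 on WT 1, 3 and 4, a difference of 0.46 (SE 0.21, limma adjusted p = 0.666). The carnitine transporter Slc22a5 differed by -0.05 on average. The imprinted Slc22a18 lay at -0.74, -1.15, -1.06 and -1.08 on Cx43 KO 1 to 4, against -1.04, -1.17 and -1.20 on WT 1 to 3 and slightly higher on WT 4, a difference of 0.10 (SE 0.16).

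**Figure D3:**
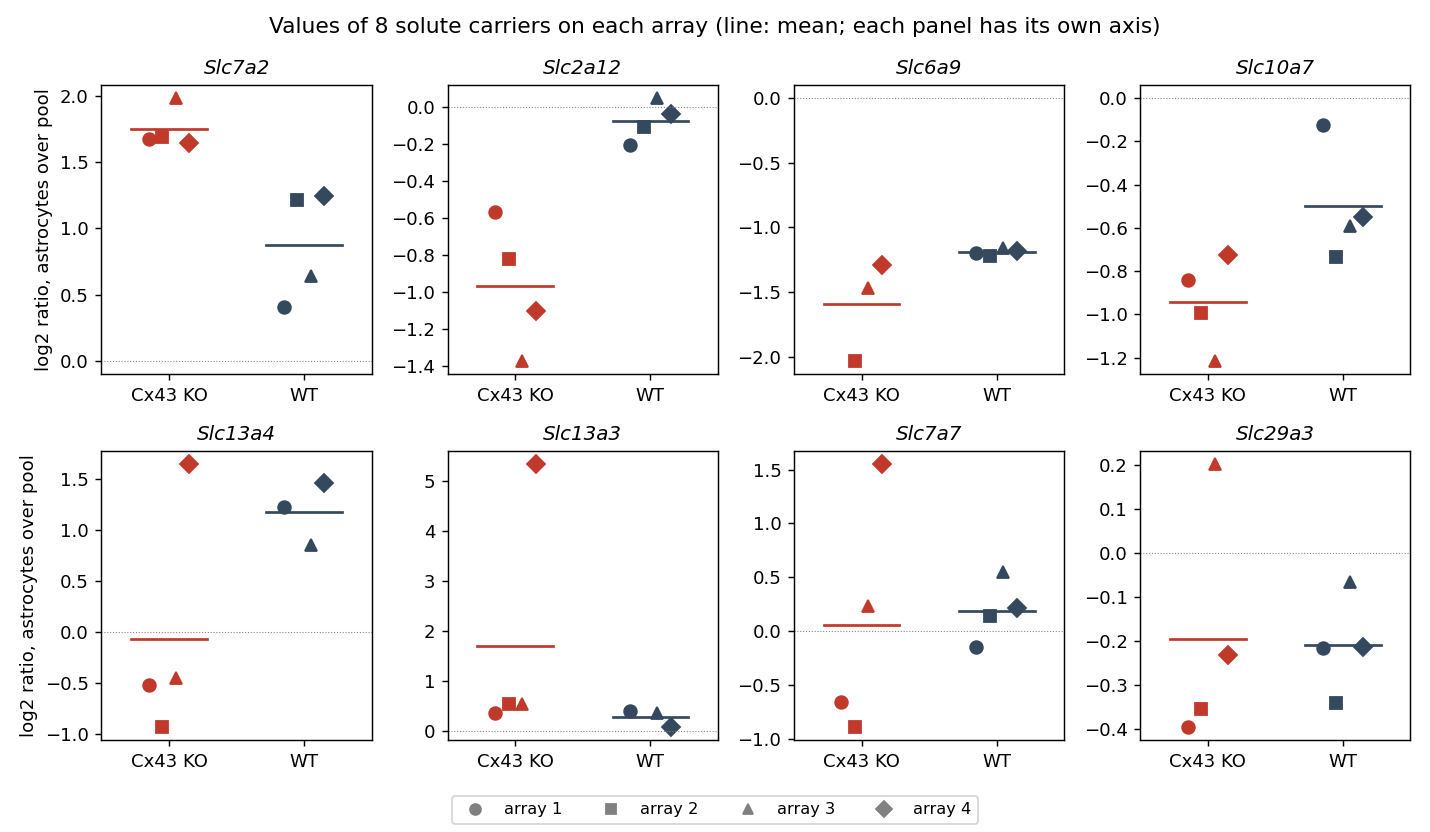
Log2 ratio over the pool (vertical axis, a scale of its own in each panel) of 8 solute carriers on each Cx43 KO and WT array, with the array number shown by the symbol's shape and a line at the mean. The genotypes do not overlap for Slc2a12, for Slc6a9, which has no ratio on Cx43 KO 1, and for Slc7a2 as the mean of its features only. Slc13a4 and Slc7a7 place Cx43 KO 4 above the other Cx43 KO arrays, and Slc13a3 reaches 5.34 on that array alone.

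Ion and acid-base carriers were 5 higher and 1 lower, with a median difference of 0.19, and 4 higher and 2 lower with quantile or scale normalization or without Cx43 KO 4. None was below an unadjusted p of 0.05. Slc8b1, the sodium-calcium exchanger of the mitochondrial inner membrane, lay at 0.56, 0.13, 0.59 and 1.15 on Cx43 KO 1 to 4, against -0.19, 0.51 and 0.16 on WT 1, 3 and 4, a difference of 0.45 (SE 0.27), and of 0.27 without Cx43 KO 4 or without WT 1. Slc4a2, a chloride-bicarbonate exchanger, lay at 0.12, 0.12, 0.94 and 0.15 on Cx43 KO 1 to 4, against -0.17, 0.27, 0.08 and 0.02 on WT 1 to 4. Its difference of 0.28 (SE 0.22) was 0.08 without Cx43 KO 3.

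The potassium-chloride cotransporter Slc12a4 (KCC1) was among the members furthest above the pool, at 2.05, 1.86, 1.63 and 1.72 on Cx43 KO 1 to 4, against 1.86, 1.59, 1.61 and 1.66 on WT 1 to 4. Its difference of 0.13 (SE 0.16) turned to -0.13 with quantile and -0.15 with scale normalization. Of the sodium-phosphate cotransporters, Slc20a1 lay at 0.43, 0.12, 1.10 and 0.76 on Cx43 KO 1 to 4, against 0.93, 0.81, 0.65 and 0.49 on WT 1 to 4, a difference of -0.12 (SE 0.23). The WT values lay within the Cx43 KO range. Slc20a2 differed by 0.09 (SE 0.21). Slc9a3r2 carries the prefix but is a scaffold protein of sodium-proton exchangers. It lay at -1.41, -1.01, -1.70 and -1.11 on Cx43 KO 1 to 4, against -1.29, -1.61, -1.52 and -1.78 on WT 1 to 4, a difference of 0.25 (SE 0.20). Its 2 features gave smaller differences of opposite sign. The one measured on all arrays differed by 0.18. The other, with ratios on Cx43 KO 3, WT 1 and WT 4 alone, differed by -0.23.

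Metal carriers differed little. The 5 tested members ran from -0.17 for the zinc transporter Slc30a5 to 0.14 for Slc30a9, and their signs depended on the processing, 4 higher and 1 lower as tested and 2 higher and 3 lower with 1 feature per gene, with quantile or scale normalization, or without Cx43 KO 4. Slc30a5 lay at -0.40, -0.12, -0.45 and -0.44 on Cx43 KO 1 to 4, against -0.05, 0.22, -0.29 and -0.60 on WT 1 to 4. The zinc exporter Slc30a1 differed by 0.02 as the mean of its 2 features and by -0.04 on the feature measured on all arrays. The copper importer Slc31a1 differed by 0.11 and by -0.0020 in the same way, because a further feature had a ratio of 1.59 on Cx43 KO 1 alone. The zinc transporter Slc39a13 differed by 0.05.

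Among carriers of nucleosides and vitamins, Slc29a3, an equilibrative nucleoside transporter of lysosomes known from macrophages, showed no separation. It lay at -0.39, -0.35, 0.20 and -0.23 on Cx43 KO 1 to 4, against -0.22, -0.34, -0.07 and -0.21 on WT 1 to 4. The difference was 0.014 with a 95% interval of -0.39 to 0.41, and its sign turned in 4 of the 20 alternatives. Among the Cx43 KO arrays it was highest on Cx43 KO 3, where most of the macrophage markers were highest on Cx43 KO 4. Slc46a3, a lysosomal carrier also known from macrophages, was lowest on Cx43 KO 4. It lay at -0.55, -0.80 and -1.19 on Cx43 KO 1, 3 and 4, against -0.43, -0.07, 0.01 and -0.73 on WT 1 to 4. The difference was -0.54 (SE 0.25, limma adjusted p = 0.666). Only WT 4 lay within the Cx43 KO range. The reduced folate carrier Slc19a1 lay at -0.65, -0.68, -1.06 and -0.83 on Cx43 KO 1 to 4, against 0.04, -0.87, -0.63 and -0.81 on WT 1 to 4. WT 1 stood above the rest, and the difference was -0.24 (SE 0.22) with it and -0.04 without it. The urea transporter Slc14a1, known from astrocytes, lay at 0.50, 0.50, 0.96 and 0.05 on Cx43 KO 1 to 4, against 0.68, 0.25, 0.47 and 1.05 on WT 1 to 4, a difference of -0.12 (SE 0.24) that turned to 0.04 without Cx43 KO 4.

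In all, 3 of the 41 solute carriers did not overlap between the genotypes (7.32%, background 5.22%), Slc7a2 higher (background 2.43%) and Slc2a12 and Slc6a9 lower (background 2.8%). Of the 30 members with 8 values, 4 had the same sign in all 4 lot batches (13.3%), against 16% of the 2596 genes and features with 8 values. These were Slc7a2 and Slc12a4, higher, and Slc2a12 and Slc10a7, lower, of which Slc12a4 turned with quantile or scale normalization. The interval of the difference stayed within -1 and 1 for 31 of the 41, which leaves a change beyond 2-fold outside the 95% interval for these. Leaving out 1 array moved the difference by over 1.5 times or turned its sign in 35 of the 41. This limit is relative, so a difference near 0 crosses it easily, and the share over everything tested was not computed. The other 6, Slc2a12, Slc7a2, Slc10a7, Slc13a4, Slc35b2 and Slc46a3, all had differences of at least 0.34 in size. The arrays give no counts, and their number limits this precision.

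Each member's level against the pool can also be read without regard to the difference between the genotypes. Of the 30 members with 8 values, 6 were above the pool on every array and 5 below it on every array, against 666 and 659 of 2596. Over all 41 tested, the highest mean belonged to Slc38a1, at 2.45 ± 0.70 (SD, n = 4) in Cx43 KO and 2.33 ± 0.62 (SD, n = 3) in WT. Its lowest value, 1.49, was on Cx43 KO 4, where the mean of the astrocyte markers was low. The next, 1.74, was on WT 1, where that mean was 1.86, and a link between them was not tested. Slc12a4 was at 1.81 ± 0.18 (SD, n = 4) in Cx43 KO and 1.68 ± 0.12 (SD, n = 4) in WT, and Slc6a8 at 1.47 ± 0.07 (SD, n = 4) in Cx43 KO and 1.19 ± 0.30 (SD, n = 4) in WT. At the other end, Slc6a9 was at -1.60 ± 0.39 (SD, n = 3) in Cx43 KO and -1.19 ± 0.03 (SD, n = 4) in WT. Slc9a3r2, the lowest over the arrays at -1.43 as the mean of its 2 features, was at -1.31 ± 0.31 (SD, n = 4) in Cx43 KO and -1.55 ± 0.20 (SD, n = 4) in WT. A feature with ratios on Cx43 KO 3, WT 1 and WT 4 alone lowered this mean. The feature measured on all arrays averaged -1.20 in Cx43 KO and -1.39 in WT. Slc22a18 averaged -1.05 over all 8 arrays. Ratios of different genes were not tested against each other.

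**Figure D4:**
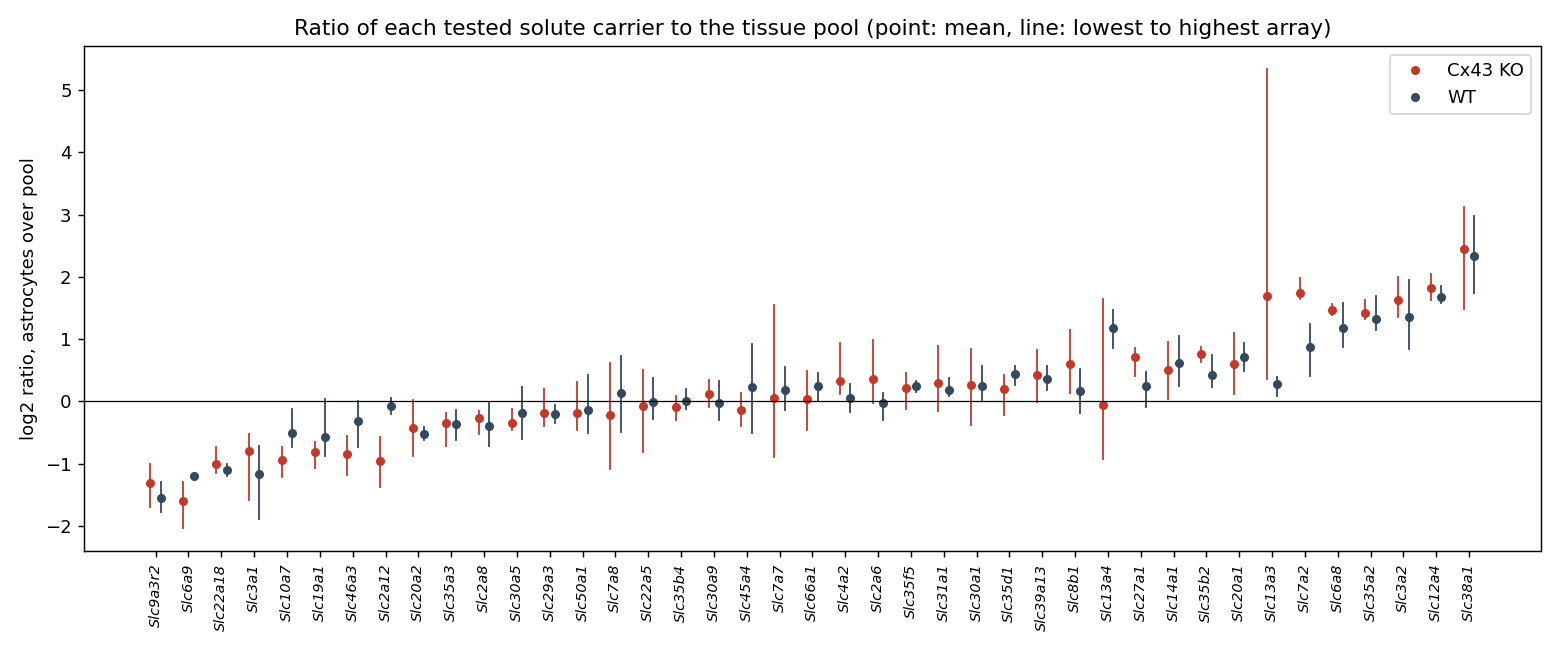
Log2 ratio over the pool (vertical axis) of the 41 tested solute carriers, ordered by their mean over the arrays, with Cx43 KO left of WT, a point at the mean and a line from the lowest to the highest array. The genotypes follow each other from Slc9a3r2 near -1.43 to Slc38a1 at 2.40, and the long lines belong to Slc13a3, Slc7a7 and Slc13a4 in Cx43 KO.

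The other 54 members, among them Slc6a19os and Slc9a3r1, could not be tested. Of these, 24 were listed at 0 on all 8 arrays, which gives no level in either direction. They included the glutamate transporter Slc1a2 (GLT-1), the glucose transporter Slc2a1 (GLUT1), the glutamine transporter Slc1a5, the iron exporter Slc40a1 and the sodium-calcium exchanger Slc8a1. The other 30 had some ratios, and 0 of the 54 had one on WT 2 or WT 3, the arrays with the fewest ratios. For 14, 1 more WT value would have been enough.

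Several of these were liver or kidney transporters far below the pool. Slc27a2, a very long chain fatty acid carrier of liver and kidney, lay at -4.28, -4.97 and -5.50 on Cx43 KO 1, 3 and 4, against -4.84 and -5.61 on WT 1 and 4. Slc27a5 of liver lay at -3.47 to -4.05 on 3 Cx43 KO arrays, against -3.62 and -3.84 on 2 WT arrays, and Slc38a4, an amino acid transporter of liver, at -2.31 to -3.27, against -2.68 and -3.60. Slc32a1, the vesicular transporter of inhibitory neurons, lay at -1.23 to -1.81 on 3 Cx43 KO arrays, against -1.99 and -1.75 on 2 WT arrays. In each of these the genotypes overlapped. Ratios on 2 arrays of a single genotype were found for 3 members, Slc16a10 and Slc46a2 in Cx43 KO and Slc36a1 in WT.

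The gradients that drive many solute carriers are built by pumps, and a list of pumps and partner proteins had 19 genes on the array and 12 tested. Of these 7 were higher and 5 lower (6 and 6 without Cx43 KO 4), 0 passed the limma test, and 2 lay below an unadjusted p of 0.05, both higher (background 3.85%). The vacuolar proton pump acidifies lysosomes and vesicles. Its 5 tested genes, of 7 on the array, include the accessory genes Atp6ap1 and Atp6ap2. These 5 were higher in Cx43 KO by 0.08 to 0.39, with a median of 0.19. The 5 were also higher with quantile or scale normalization, without centring, and without Cx43 KO 4, where the median was 0.08. Atp6v1c1, a subunit of its cytosolic part, lay at -0.42, -0.29, -0.33 and -0.30 on Cx43 KO 1 to 4, against -0.82, -0.53, -0.83 and -0.72 on WT 1 to 4. The groups did not overlap, and the difference was 0.39 (SE 0.15, limma adjusted p = 0.655). Pdzk1, a scaffold that holds transporters at the membrane in kidney and liver, lay at -1.66, -1.54, -1.55 and -2.26 on Cx43 KO 1 to 4, against -3.22, -2.17 and -2.10 on WT 1, 2 and 4, a difference of 0.74 (SE 0.31). The list held 0 Atp1 subunit genes of the sodium pump on the array. The sodium pump regulators Fxyd5 and Fxyd6 were tested and differed by -1.06 (SE 0.64) and -0.31 (SE 0.23). Fxyd5 had the largest difference of the list, and ran from -1.90 on Cx43 KO 1 to 1.74 on Cx43 KO 4.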

How the data were processed

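The authors deposited 1 signed log ratio per feature, read here as log2, of dye-labelled astrocyte RNA against the tissue pool, per the labels. The sources used here do not give the base, dyes, scanner, background correction or normalization. Another base would rescale every difference by 1 factor and leave signs and p-values as they are. Exact 0, filling 42.4% to 63.4% of the 9568 features of an array, was read as no ratio, and the other ratios were centred on each array's median (0.09 to 0.32 before centring). Names came from the platform annotation, in which 7307 features had 1 symbol. All 95 solute carriers matched the RefSeq gene table of GRCm38.p6 by Entrez number. Features of a gene were averaged within an array, so arrays could differ in the features averaged. A further 4 features that name a solute carrier with another gene were left out.

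Genes with at least 3 values per genotype were tested with limma 3.58.1 (R 4.3.3), two-sided, without a block, adjusted by Benjamini-Hochberg over all 3505, at a threshold of 0.05. Every difference subtracts WT from Cx43 KO and takes its SE and 95% interval from that fit. The labels give same-numbered arrays 1 lot batch, and this pairs them. Deviations from the mean of each genotype correlated at -0.18, 0.19, -0.13 and -0.19 across 2596 genes and features for numbers 1 to 4. The 20 alternatives were the lot batch as a block, array weights, 8 values only, no centring, quantile or scale normalization, exact 0 as a ratio, 1 feature per gene, and leaving out each array or lot batch, in which at least 2 values per genotype sufficed. Quantile and scale normalization act on the features before averaging. The script was tested on simulated data. Transport roles follow the SLC family number. Array values in full were given for Slc7a2, Slc2a12, Slc6a9 and Slc29a3, for the 10 members in each direction with the smallest p and for the 5 highest and 5 lowest against the pool with 8 values. Other members given by array were chosen after their values were seen. The members, roles and lists were chosen with earlier results of these data known. Promoter windows are from RefSeq, GRCm38.p6.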

Additional observations from a re-analysis of the deposited data

Results flagged for a closer look

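Within the 71 genotype groups of 4 arrays, 7 held 1 array far from the other 3 (9.86%), where chance flags about 1 in 20 groups, and all 7 were Cx43 KO arrays. Over everything tested, 361 of 5885 such groups did so (6.13%). Taken by genotype, it was 7 of 38 Cx43 KO groups of the solute carriers, against 208 of 3119 Cx43 KO groups of everything tested (6.67%), and 0 of 33 WT groups, against 153 of 2766 (5.53%). On Cx43 KO 4, Slc13a3 stood at 5.34, against 0.36 to 0.54 on the other Cx43 KO arrays. Slc3a1 stood at -1.59 there, against -0.57 to -0.52, and Slc2a8 at -0.53, against -0.21 to -0.15. On Cx43 KO 3, Slc4a2 stood at 0.94, against 0.12 to 0.15, Slc7a2 at 1.98, against 1.64 to 1.69 (the mean of its features, of which the one measured on all arrays was at 1.43 on Cx43 KO 3, below Cx43 KO 1 and 2), and Slc35a2 at 1.63, against 1.32 to 1.36. On Cx43 KO 2, Slc30a5 stood at -0.12, against -0.45 to -0.40.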

How the results depend on the processing

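The count of solute carriers that passed limma's adjusted test stayed at 0 in all alternatives except those that left out an array, where it was 0 to 1, the 1 being Slc13a4 without Cx43 KO 4. Over the whole table that count was 0 to 4 when leaving out an array or lot batch, with 4 without Cx43 KO 4 and 1 without WT 2. At an unadjusted p of 0.05, 4 solute carriers and 263 of everything tested became 7 and 468 with array weights and 2 and 196 with a replicate block for lot batch. They were 2 to 8 and 125 to 536 when leaving out an array or lot batch, with the upper ends without lot batch 4. Slc7a2 and Slc2a12 were below that threshold in all 20 alternatives. The median difference of the solute carriers, 0.016, was 0.0082 to 0.07 when leaving out an array or lot batch and below 0 in 4 alternatives, at -0.026 with quantile normalization, -0.032 with scale normalization, -0.018 with exact 0 as a ratio of 0 and -0.012 over the members with 8 values. Slc12a4 turned to -0.13 with quantile and -0.15 with scale normalization, Slc22a18 to -0.020 with exact 0 as a ratio of 0, and Slc29a3 to -0.025 with array weights. When leaving out an array or lot batch, Slc29a3 ran from -0.12 to 0.081 and Slc20a1 from -0.31 to 0.072. The cause of these turns was not tested. The number of arrays and the features without a ratio on WT 2 and WT 3 limit the comparison.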

Other observations

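Gja1, the gene of connexin43, lies on chromosome 10 by the RefSeq promoter windows of GRCm38.p6, as do 3 of the tested solute carriers. Slc2a12 differed by -0.89, Slc19a1 by -0.24 and Slc29a3 by 0.014 between Cx43 KO and WT. Of the 133 tested genes with a window on that chromosome, 14 lay below an unadjusted p of 0.05 (10.5%), against 163 of the 2358 tested genes with a window on any chromosome (6.91%). Slc2a12 was among these 14. Whether the chromosome bears on these values was not tested.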
